A study of Mus musculus with 9 samples.

Results

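The collagen genes were followed through a culture of mouse fibroblasts that was being converted into neurons. Members were the genes whose symbol has the form of a collagen chain, Col followed by a number, the letter a and a second number, and that were present in the feature tables of all 9 libraries. This rule found 44 collagen genes among the 30406 gene identifiers that the tables share, and it used no measured value. By the form of protein they encode, 11 were fibrillar collagens, 6 basement membrane collagens, 6 beaded filament collagens of type VI, 1 the anchoring fibril collagen, 3 network collagens, 9 fibril-associated collagens (FACIT), 4 transmembrane collagens and 2 multiplexins, and Col26a1 and Col28a1 were kept apart.

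Collagens are triple-helical proteins of the extracellular matrix, each built from 3 chains that may be alike or come from different genes. Fibrillar types I, III and V carry the tensile strength of connective tissue, type IV forms the sheet of basement membranes, type VI links cells to that matrix, and FACIT collagens decorate fibrils. Fibroblasts are the main source of fibrillar collagen, and their high collagen expression is a standard mark of their identity, whereas neurons make little of it.

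The cultures were mouse embryonic fibroblasts (MEFs) transduced with lentivirus carrying the BAM genes, a set of neuronal transcription factors, under doxycycline control, and single cells were sequenced with a droplet 3′ kit on days 4, 7 and 10 after doxycycline was given. Every library, WT included, carried the BAM genes and doxycycline, and no untransduced culture was among the libraries. The genotypes were WT, Per1-/- and Per2-/-, the latter pair carrying knockout alleles (Per1tm1Drw and Per2tm1Drw) of circadian clock genes, and each genotype and day had 1 library, so no group had a replicate. By the study's methods the MEFs came from pooled embryos whose head and heart had been removed and whose sex was not determined, the wells were coated with poly-D lysine and laminin, and macrophages contaminate such cultures.

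Across the 9 libraries, between 126625215 and 353198559 UMI (unique molecular identifiers, each counting 1 captured RNA molecule) were assigned to genes, and collagen genes took 1.34% to 2.15% of them. Of 95603 barcodes, 74835 cells were kept after limits on UMI and mitochondrial reads and after likely doublets were removed. The WT day 10 library stood apart, with 55.4% of its barcodes passing the limits against 86.1% to 94.5% in the others. Pairs of libraries shared 0.172% to 0.424% of the barcodes of the smaller library. Per1 was measured at 9.85 to 11.6 CPM (the UMI of a gene in the summed cells of a class and library, scaled to 1000000 UMI) in fibroblast-like cells of the Per1-/- libraries and 6.49 to 8.12 CPM in WT, and Per2 at 4.80 to 6.55 CPM in Per2-/- and 2.51 to 2.86 CPM in WT. Neither targeted gene was thus lower in its knockout, and since 3′ tags need not fall in the altered part of an allele, these values check nothing about the labels. Xist stood at 0.0615 and 0.0542 CPM in fibroblast-like cells of Per1-/- on days 7 and 10. In the other libraries it stood at 279 to 968 CPM, with Per1-/- day 4 at 414 CPM. Summed Y-linked genes (Ddx3y, Eif2s3y, Kdm5d and Uty) stood at 112, 208 and 216 CPM in Per1-/- on days 4, 7 and 10. Sex makeup thus cannot be told apart from genotype there, nor from day within Per1-/-.

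Cells were clustered without any collagen gene, and clusters were named by marker lists that hold none. The fibroblast list does hold other matrix genes, among them Dcn, Lum, Fn1, Postn and Fbn1. A cluster needed enough of that list to be named fibroblast-like, so the collagen level of the class is not independent of its naming. A cluster of 2009 cells led by Gcg and Pou3f2, with 7 fibroblast markers and 0.470% of its UMI in collagen, stayed unnamed. Further rules left clusters unnamed for low UMI or for leading genes of another class. The latter took out a cluster of 3730 cells led by Foxd1 and Lbp, with 17 fibroblast markers and 2.36% of its UMI in collagen. A cluster of 310 cells led by fat cell genes was left unnamed by a gene list written after the clusters were seen. The lists and rules gave 44544 fibroblast-like, 7212 neuron-like, 6469 macrophage-like, 3393 skeletal muscle-like, 2725 Schwann-like, 1000 astrocyte-like and 523 mesothelial-like cells, and 8969 cells in 7 clusters stayed unnamed. The fibroblast-like class took in clusters with cartilage genes among their leading genes, one of 5459 cells with Comp, Epyc and Hapln1 and one of 974 cells with Col2a1, Matn4 and Cnmd. The latter had the highest Col2a1 and Col9a3 of the class, at 83.8 and 19.9 CPM. The summed neuron markers reached 4875 to 9485 CPM in neuron-like cells against 179 to 365 CPM in fibroblast-like cells. The summed fibroblast markers stood at 11730 to 17530 CPM in fibroblast-like cells and at 436 to 717 CPM in neuron-like cells. Macrophage-like cells, which are not known for making fibrillar collagen, came through the same droplet runs and are given beside the neuron-like cells as a background level. Neuron-like cells held fewer UMI per cell than these, and the background level was not adjusted for that.

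The sequences before the start sites of 3 members are shown because these genes mark the range of behaviour in neuron-like cells. Col1a2 and Col3a1 were among the members furthest below their fibroblast-like level there, though still among the most abundant. Col25a1 stood above its level in the fibroblast-like class as a whole, though not above that of every fibroblast-like cluster. Each run is the 250 bases before the RefSeq start on the gene's own strand in GRCm38.p6 (chr6:4505368-4505617, chr1:45311288-45311537 and chr3:130180595-130180844, all on the plus strand), in lower case with matches on either strand to a core promoter motif (TATAAA), a nuclear factor Y motif (CCAAT), a GC box motif (GGGCGG), an E-box motif (CAGCTG) and a Fos and Jun motif (TGACTCA) in capitals. The RefSeq start of Col3a1 is the start of the gene in the GENCODE annotation, whereas that of Col1a2 lies 804 bases and that of Col25a1 49344 bases downstream of the annotated gene start, so these 2 windows lie inside the annotated genes.
Col1a2: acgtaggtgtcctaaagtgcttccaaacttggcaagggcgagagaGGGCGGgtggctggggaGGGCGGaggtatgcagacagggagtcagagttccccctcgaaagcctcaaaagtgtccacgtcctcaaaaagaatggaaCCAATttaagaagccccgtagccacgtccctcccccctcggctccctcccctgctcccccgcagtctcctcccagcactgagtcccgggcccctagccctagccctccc
Col3a1: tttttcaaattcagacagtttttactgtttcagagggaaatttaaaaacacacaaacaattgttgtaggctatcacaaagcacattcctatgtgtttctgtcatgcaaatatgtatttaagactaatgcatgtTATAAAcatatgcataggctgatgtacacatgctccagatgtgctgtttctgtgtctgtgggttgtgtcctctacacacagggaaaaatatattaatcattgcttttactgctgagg
Col25a1: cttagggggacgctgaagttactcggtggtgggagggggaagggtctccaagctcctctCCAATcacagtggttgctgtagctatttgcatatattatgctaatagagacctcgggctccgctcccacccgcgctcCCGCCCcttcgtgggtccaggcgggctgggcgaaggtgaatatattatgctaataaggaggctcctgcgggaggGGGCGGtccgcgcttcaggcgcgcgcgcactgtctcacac
In Col1a2, the chain that pairs with Col1a1 in type I collagen, GGGCGG lay 205 and 188 bases before the start and CCAAT 109 bases before it. Col3a1, the single chain of type III collagen, held TATAAA at 117 bases and none of the other motifs. Col25a1, a transmembrane collagen made by neurons, held CCAAT at 191 bases and GGGCGG at 114 bases on the opposite strand and 40 bases on the same strand.

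RefSeq promoters were found for 35 of the 44 members, as 38 windows. GGGCGG was in 57.9% of these windows and in 32.7% of all 32851 promoter windows of the same length. The other motifs were found at closer shares in member and all windows: CCAAT in 34.2% and 33.8%, TATAAA in 13.2% and 12.4%, CAGCTG, which is its own reverse complement, in 15.8% and 13.0%, and TGACTCA in 2.63% and 4.46%. No promoter sequence was used for Col1a1, Col2a1, Col4a3, Col5a2, Col9a3, Col12a1, Col14a1, Col22a1 and Col26a1. A match is a run of letters and does not show that a factor binds there.

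Many members are neighbours in the genome (GRCm38, GENCODE annotation). Col4a1 (chr8:11198423-11312826, minus strand) and Col4a2 (chr8:11312805-11449287, plus strand) lie head to head with starts 21 bases apart, Col4a4 and Col4a3 on chromosome 1 have starts 72 bases apart, and Col4a6 and Col4a5 on the X chromosome have starts 1309 bases apart. Col3a1 (chr1:45311538-45349706, plus strand) and Col5a2 (chr1:45374321-45503282, minus strand) lie tail to tail. The type I chains lie apart, Col1a1 at chr11:94936224-94953042 and Col1a2 at chr6:4504814-4541544, both on the plus strand.

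Fibroblast-like cells gave 2.36% ± 0.493 (SD, n = 9 libraries) of their UMI to collagen genes, with 1.62% in the lowest library and 3.08% in the highest. Neuron-like cells gave 0.0747% ± 0.0137 (n = 9 libraries), with a range of 0.0528% to 0.0928%, and macrophage-like cells 0.0375% ± 0.0127 (n = 9 libraries), with a range of 0.0208% to 0.0567%. No neuron-like value lay near the lowest fibroblast-like one. The other classes fell between or above these: astrocyte-like cells at 0.242% ± 0.0883 (n = 8 libraries), skeletal muscle-like cells at 0.445% ± 0.126 (n = 9), Schwann-like cells at 0.822% ± 0.151 (n = 9) and mesothelial-like cells at 2.62% ± 0.512 (n = 7). The last mean exceeds the fibroblast-like mean by less than the spread between libraries, but libraries can be compared one by one. In WT, Per1-/- and Per2-/- on day 4, mesothelial-like cells stood at 2.43%, 2.74% and 1.91% against 1.89%, 1.96% and 1.62% in fibroblast-like cells. On day 7 they stood at 3.36%, 3.065% and 2.75% against 2.46%, 2.83% and 2.47%. In Per1-/- day 10, the remaining library used, they stood lower, at 2.11% against 3.08%.

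**Figure D1:**
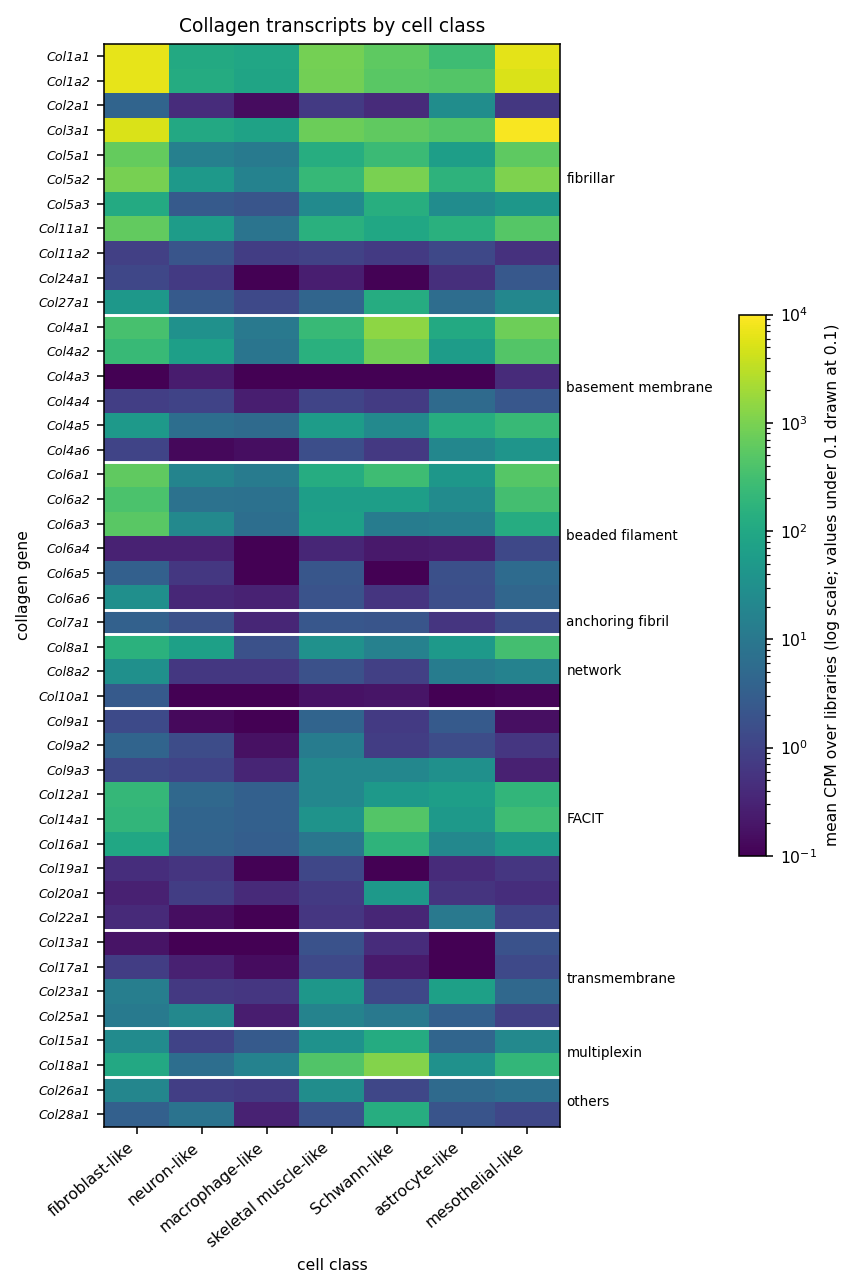
Mean CPM over libraries (colour, log scale, values under 0.1 drawn at 0.1) of the 44 collagen genes (rows, in their protein groups) in the 7 named classes (columns). Among the fibrillar rows, Col1a1 stands at 6409 CPM in fibroblast-like, 108 CPM in neuron-like and 89.1 CPM in macrophage-like cells, and Schwann-like cells stand out at Col4a1 with 1427 CPM.

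The same order held cell by cell. With each cell thinned to 3000 UMI, the median fibroblast-like cell held 66 collagen UMI (5th to 95th percentile 20 to 127) and the median neuron-like cell 2 (0 to 6). Of neuron-like cells, 88.3% held under 5 collagen UMI, and 0.125% held 20 or more, a count that 95.4% of fibroblast-like cells reached. Macrophage-like cells had a median of 1, with 98.1% under 5. Skeletal muscle-like cells held a median of 8 (1 to 40), Schwann-like cells 21, astrocyte-like cells 4 and mesothelial-like cells 80. The distributions of neuron-like and fibroblast-like cells thus hardly overlapped.

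**Figure D2:**
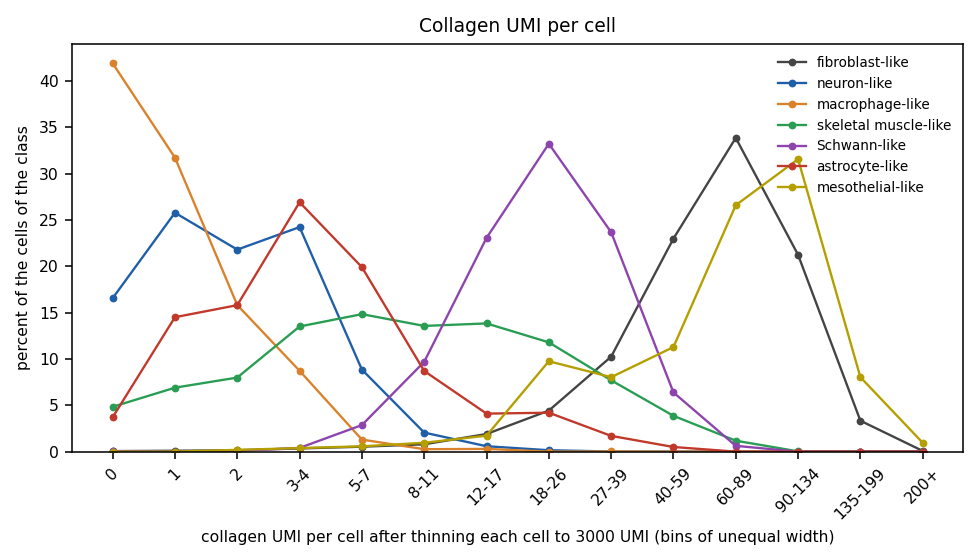
Collagen UMI per cell (x axis, bins of unequal width) after each cell was thinned to 3000 UMI, as the percentage of the cells of each class (y axis). Neuron-like cells lie at the left end with a median of 2 UMI, next to macrophage-like cells with a median of 1, and fibroblast-like cells lie at the right with a median of 66 UMI.

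The lowest fibroblast-like cluster, led by Cst6, Ly6c1, Ly6a and Mmp3, gave 1.11% of its UMI to collagen. It was followed by a cluster led by Wnt4, Syt13 and Pou3f1 at 1.30%, one led by the cell division genes Top2a and Cenpf at 1.49% and one led by Otor, Tac1, Pmch and Cbln2 at 1.77%. The 3 neuron-like clusters gave 0.0794%, 0.0812% and 0.0803%. These clusters are ordered here by their share only, with no time course implied.

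Within fibroblast-like cells a few genes made up most of the collagen RNA. UMI of 3′ tags count captured molecules, so CPM do not scale with transcript length. How well the RNA of each gene is captured was not measured, so levels and ratios between genes are those of captured tags. Col1a2 stood at 6597 ± 1461 CPM (mean ± SD, n = 9 libraries), from 4244 to 8552 CPM with a median of 6895 CPM. Col1a1 stood at 6409 ± 1430 CPM, from 4108 to 7936 CPM with a median of 6201 CPM, and Col3a1 at 5105 ± 1202 CPM, from 3474 to 7162 CPM with a median of 4841 CPM. These 3 genes held 76.9% of the collagen UMI, and the first 10 genes held 94.1%. Col1a2 and Col1a1 did not differ beyond their spread.

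The next level was far lower. Col5a2 stood at 963 CPM and Col5a1 at 665 CPM, the chains of type V collagen that starts fibrils. Col11a1, a minor fibrillar chain, stood at 617 CPM. The type VI chains Col6a1, Col6a3 and Col6a2 stood at 596, 530 and 389 CPM, and the main type IV chains Col4a1 and Col4a2 at 352 and 232 CPM. The FACIT genes Col12a1 and Col14a1 stood at 214 and 199 CPM, Col8a1, of the network collagen type VIII, at 154 CPM, and Col5a3 at 113 CPM. Neighbours in this order from Col5a1 to Col6a3 lay within each other's spread. Of the 44 members, 15 reached 100 CPM, 25 reached 10 CPM and 35 reached 1 CPM, and the lowest was Col4a3, a type IV chain of kidney and lung, at 0.0749 CPM.

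Neuron-like cells held little of this RNA. On day 4, Col1a1 stood at 4690, 5551 and 4108 CPM in fibroblast-like cells of the WT, Per1-/- and Per2-/- libraries and at 126, 130 and 63.0 CPM in neuron-like cells of the same libraries. On day 7 the values were 6167, 7728 and 7404 CPM in fibroblast-like cells and 71.5, 58.3 and 141 CPM in neuron-like cells. On day 10 they were 7893, 7936 and 6201 CPM against 169, 63.2 and 152 CPM. The 2 classes did not overlap on any day. In edgeR's quasi-likelihood test on summed counts with library as a term, which is the test behind each log2 fold and adjusted p (Benjamini-Hochberg over all genes tested) given here, Col1a1 was lower by a log2 fold of -6.40 ± 0.25 (SE, adjusted p = 3.07e-10).

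Of the 44 members, 34 were called lower and 3 higher in neuron-like than in fibroblast-like cells, a call needing an adjusted p under 0.05 and at least a 2-fold difference. Among all 17730 genes tested, 24.5% were called lower and 21.3% higher. The median log2 fold was -3.76 over the members and -0.02 over all genes tested. Log2 folds are after TMM scaling, which moved the neuron-like to fibroblast-like fold by -0.45 on average (-0.52 to -0.34 over libraries) from that by library totals, the fold against macrophage-like cells by -0.61, and the fold of macrophage-like, skeletal muscle-like, Schwann-like, astrocyte-like and mesothelial-like to fibroblast-like cells by 0.22, -0.31, -0.23, -0.30 and -0.03. By library totals 5 members in place of 3 were called higher in neuron-like cells, and without a library term or without the fibroblast-like cluster of 5459 cells with cartilage genes 1 was. Here and below, counts under other settings or with 1 library left out are of members alone, with no share over all genes beside them.

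All but 1 of the fibrillar genes were called lower, 10 of 11, with a median log2 fold of -4.87. Col1a2 was lower at -6.23 ± 0.17 (adjusted p = 1.81e-11) and Col3a1 at -6.08 ± 0.20 (adjusted p = 6.78e-11), and in both the highest neuron-like library, at 163 and 143 CPM, was far below the lowest fibroblast-like one. Col5a1, Col5a3 and Col5a2 were lower at -5.83, -5.77 and -4.87, Col27a1 at -4.68 and Col11a1 at -3.86. Col11a2, a chain of cartilage type XI collagen, was not called, with 0.96 ± 0.27 (adjusted p = 0.00569) and 1.47 to 3.14 CPM in neuron-like cells. Col2a1, the cartilage collagen, was lower at -3.02, and Col24a1 at -1.34 ± 0.51 (adjusted p = 0.0303), a call lost in 6 of 9 fits that left out 1 library.

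Type VI collagen was low as well, 5 of 6 members being called lower. Col6a6 was lower at -6.37 ± 0.20 (adjusted p = 5.8e-11) and Col6a2 at -6.01 ± 0.23 (adjusted p = 2.25e-10), whereas Col6a4 at -0.40 was not called. Col7a1, the anchoring fibril collagen of skin, was lower at -1.46. All 3 network collagens were lower, Col8a2 at -5.78 and Col10a1 at -5.17 but Col8a1 at only -1.62. Of the FACIT genes 5 of 9 were called lower, led by Col14a1 at -5.96 and Col12a1 at -5.81. Both multiplexins, Col15a1 and Col18a1, were lower, at -4.63 and -4.42, and so was Col26a1, at -4.73.

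Of the basement membrane genes 4 of 6 were called lower, with a smaller median difference of -2.76. Col4a1 was lower at -3.86 ± 0.20 (adjusted p = 2.94e-09) and Col4a5 and Col4a6 at -3.42 and -3.26, while Col4a2 was lower at -2.27 ± 0.10 (adjusted p = 6.07e-10). Col4a4 at -0.03 was not called. Of the transmembrane genes 3 of 4 were lower, Col23a1 at -4.79, Col13a1 at -3.66 and Col17a1 at -1.60. Col13a1 reached at most 0.0818 CPM in neuron-like cells and Col10a1 at most 0.327 CPM, so the size of their folds rests on few counts.

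Higher calls were few and rested on low counts. Col4a3 was higher by 1.41 ± 0.53 (adjusted p = 0.0271), Col28a1, a collagen of peripheral nerve, by 1.05 ± 0.29 (adjusted p = 0.00503) and Col20a1, a FACIT collagen, by 1.01 ± 0.26 (adjusted p = 0.00362). Col4a3 reached at most 0.893 CPM in neuron-like cells and was above the fibroblast-like value in 5 of 9 libraries, and Col20a1 reached at most 1.37 CPM and was above it in 8 of 9. Col28a1 was above it in 9 of 9, with a median of 6.05 CPM (1.39 to 20.2 CPM) in neuron-like cells. Without the Per2-/- day 7 library none of the 3 was called, at 1.08, 0.80 and 0.98. Leaving out WT day 4 or WT day 7 also ended the call of Col4a3, at 1.30 and 1.10, leaving out Per1-/- day 4 or WT day 10 that of Col20a1, at 0.85 and 0.90, and leaving out Per2-/- day 10 that of Col28a1, at 0.91.

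**Figure D3:**
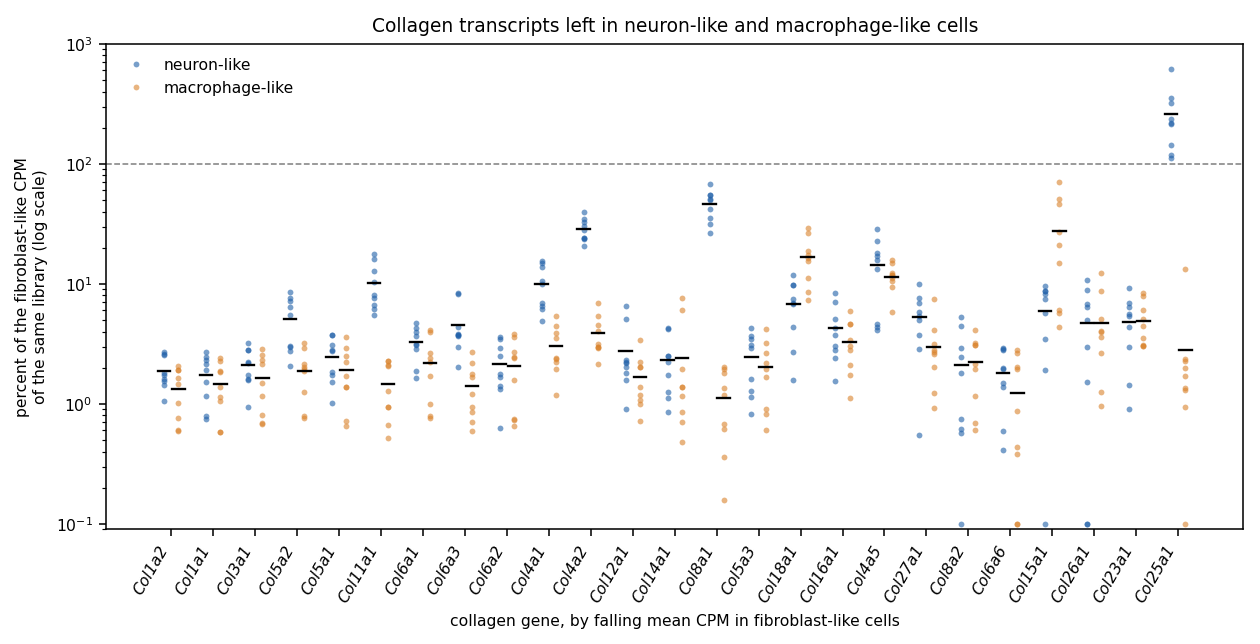
CPM in neuron-like and macrophage-like cells as a percentage of the fibroblast-like CPM of the same library (log axis, values under 0.1 drawn at 0.1) for the 25 members that reached 10 CPM in fibroblast-like cells, 1 point for each of 9 libraries with a black line at the mean. Col1a1, Col1a2 and Col3a1 have means of 1.75%, 1.90% and 2.12% in neuron-like and 1.46%, 1.34% and 1.64% in macrophage-like cells, and Col8a1 at 46.1%, Col4a2 at 28.7% and Col25a1 at 259% stand above the macrophage-like points in neuron-like cells.

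The difference was uneven on the plain CPM scale too. Over the 15 most abundant members, the neuron-like level had a median of 2.75% of the fibroblast-like level of the same library, from 1.75% for Col1a1 to 46.1% for Col8a1, and 10 of the 15 were under 5%. In macrophage-like cells the same genes had a median of 1.88%, from 1.13% for Col8a1 to 3.91% for Col4a2, and all 15 were under 5%. Col1a2 stood at 1.90% and Col3a1 at 2.12% in neuron-like cells, within the range that macrophage-like cells showed over these genes. Col11a1 stood at 10.1%, Col4a1 at 9.94% and Col4a2 at 28.7%, outside that range.

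Set beside macrophage-like cells, the type I and III genes of neuron-like cells were near that background. Col1a1 had a median of 126 CPM (58.3 to 169 CPM) in neuron-like cells and 90.5 CPM (45.05 to 150 CPM) in macrophage-like cells, and Col3a1 107 CPM (52.7 to 143 CPM) and 67.3 CPM (38.0 to 130 CPM). Each was higher in neuron-like cells in 9 of 9 libraries by CPM, while the fitted log2 folds were -0.33 for Col1a1, -0.02 for Col1a2 and -0.14 for Col3a1, none of them called. The direction of these 3 genes against macrophage-like cells thus turns with the scaling. Neuron-like cells were also shallower than macrophage-like cells, at median depths of 11632 and 22086 UMI. The part of depth in these CPM was not tested. After thinning to 3000 UMI, 26.5% of neuron-like and 22.4% of macrophage-like cells held a Col1a1 UMI, against 96.9% of fibroblast-like cells (66.2%, 75.4% and 99.4% before thinning, at median depths of 11632, 22086 and 21661.5 UMI).

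Of 34 members tested between neuron-like and macrophage-like cells, 13 were called higher and 2 lower, where 33.4% of all 15263 genes tested were called higher and 24.9% lower, so the members' share of higher calls was near the background. Col25a1 was higher by 5.85 ± 0.39 (adjusted p = 1.06e-08), Col8a1 by 4.65 ± 0.30 (adjusted p = 6.6e-09), Col28a1 by 4.03 ± 0.34 (adjusted p = 1.26e-07), Col6a5 by 3.46 and Col9a2 by 2.66. Col4a2 was higher by 2.28, Col11a1 by 2.24 and Col4a1 by 1.06, the last a call held in 5 of 9 fits that left out 1 library. Col15a1 and Col18a1, the multiplexins of basement membrane zones, were lower at -2.35 and -1.94. With doublets kept neither was called and Col18a1 turned to 0.23, and at a finer clustering 9 members were called lower. Without a library term 8 members were called higher. The counts under these other settings have no share over all genes beside them, so they cannot be set against a background.

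Col25a1 and Col28a1 were the members that neuron-like cells carried above the summed fibroblast-like cells in each of the 9 libraries. Col25a1 encodes a transmembrane collagen known for its part in motor innervation of muscle and for binding amyloid. In neuron-like cells it stood at 27.3, 28.1 and 20.4 CPM on day 4 in WT, Per1-/- and Per2-/-, at 21.3, 19.4 and 21.4 CPM on day 7 and at 19.5, 20.8 and 17.5 CPM on day 10. In fibroblast-like cells it stood at 11.5, 12.9 and 17.2 CPM, then 9.94, 5.46 and 19.3 CPM, then 13.5, 3.41 and 5.49 CPM, so the ranges of the 2 classes overlapped while each library's neuron-like value was the higher one. The log2 fold was 0.69 ± 0.23 (adjusted p = 0.0142), under the 2-fold limit and so not called. By cluster, Col25a1 stood at 24.7, 24.5 and 18.8 CPM in the neuron-like clusters. The fibroblast-like clusters had a median of 6.955 CPM, but the one led by Wnt4, Syt13 and Pou3f1 stood above these, at 39.97 CPM. Those led by Otor, Adamts3 and Cyp26b1 lay near the neuron-like ones, at 24.2, 23.2 and 23.0 CPM. After thinning to 3000 UMI, 6.58% of neuron-like, 3.12% of fibroblast-like and 0.0464% of macrophage-like cells held a Col25a1 UMI. Col28a1 had a median of 0.617 CPM over fibroblast-like clusters, with 11.2 CPM in the one led by Igf2 and Clec3b. In the neuron-like clusters it stood at 3.99, 5.04 and 11.1 CPM.

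Col8a1, which endothelial and smooth muscle cells also make, was kept more than any other of the 15 most abundant members. Neuron-like cells held 91.3, 90.9 and 73.0 CPM on day 4, 67.5, 73.6 and 68.4 CPM on day 7 and 51.1, 64.3 and 37.9 CPM on day 10. Fibroblast-like cells held 94.5 to 233 CPM, just above that range, and macrophage-like cells 0.232 to 3.24 CPM.

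The type IV pair changed its balance. Col4a1 and Col4a2 encode the chains that assemble into the common form of type IV collagen and share a start region. Their ratio of UMI was 1.52 ± 0.142 (n = 9 libraries, 1.37 to 1.87) in fibroblast-like cells, 1.65 ± 0.117 in Schwann-like and 1.68 ± 0.0582 (n = 7) in mesothelial-like cells, but 0.515 ± 0.143 (n = 9, 0.314 to 0.681) in neuron-like cells. The neuron-like values did not overlap those of any of these classes. With doublets kept the neuron-like ratio was 0.721 ± 0.0538 (0.643 to 0.789), and over the other sets of cells tried it lay between 0.506 and 0.539. Macrophage-like cells, with far fewer UMI, had a ratio of 1.199 ± 0.359 and overlapped the neuron-like range. The ratio of Col1a1 to Col1a2 was 0.972 ± 0.0444 (0.894 to 1.05) in fibroblast-like and 0.894 ± 0.287 (0.46 to 1.48) in neuron-like cells, so the ranges overlapped while neuron-like libraries differed widely.

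The ratio of Col5a1 to Col5a2 was 0.693 ± 0.0429 in fibroblast-like cells, 0.372 ± 0.126 in neuron-like cells and 0.259 ± 0.0360 in Schwann-like cells. That of Col6a1 to Col6a2 was 1.53 ± 0.0557, 2.62 ± 0.971 and 4.43 ± 0.494 in the same order. Col6a3, the long chain that type VI collagen needs to assemble with the other two, was at 0.872 ± 0.142 of Col6a1 in fibroblast-like cells and at 0.0550 ± 0.0414 in Schwann-like cells.

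Genes that modify, fold, export, cut and bind collagen were low too. Of a list of 42 such genes, the handling list, 39 were called lower and 1 higher in neuron-like than in fibroblast-like cells, with a median log2 fold of -3.01, where 24.5% of all genes were lower and 21.3% higher. The lowest were Adamts14, a procollagen protease, at -7.23, and the cross-linking enzymes Lox and Loxl4 at -5.84 and -5.81. Ddr1, a collagen receptor kinase, was higher by 1.26. Against macrophage-like cells, where 33.4% of all genes were higher and 24.9% lower, 17 of 38 were higher, led by Ddr1 at 4.99, P3h4 at 3.86 and Itga10 at 3.41, and 8 were lower, led by Plod1 at -4.07, Crtap at -2.76 and Colgalt1 at -2.51.

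Macrophage-like cells were below fibroblast-like cells over nearly the whole family. Of 42 members tested, 40 were called lower and 0 higher, where 33.6% of all 16664 genes were called lower and 19.6% higher. No member was higher in DESeq2 either. The unadjusted p of edgeR was under 0.05 for 40 of the 42 members and for 14397 of the 16664 genes. Col6a5, Col6a6, Col8a1, Col1a2 and Col6a3 were lower at -6.55, -6.30, -6.26, -6.16 and -6.11. Col11a2 and Col20a1 were not called, at 0.11 and 0.35. No UMI of Col13a1, a transmembrane collagen of the nerve-muscle junction, was found in macrophage-like cells, and with 3 counts over the class as the floor it was at least 10.7-fold lower than in fibroblast-like cells. The members' median was -4.91, and -4.88 with Col13a1 at that bound, against -0.21 over all genes. Col18a1 was the fifth most abundant member in macrophage-like cells, at 16.3 CPM. The handling list had 36 of 42 genes lower, led by Adamts3 at -6.58, Tll1 at -6.51 and Ddr2 at -6.00, and Plod1, a lysyl hydroxylase, was higher by 1.11.

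Schwann-like cells, the glia of peripheral nerve, had a collagen profile of their own. Col4a1 was their most abundant member at a median of 1310 CPM (1180 to 1790 CPM), 417% of the fibroblast-like level, followed by Col18a1 at 1081 CPM (530 to 1940 CPM). Basement membrane genes made up 31.0% of their collagen UMI against 2.74% in fibroblast-like cells, and fibrillar genes 39.1% against 87.0%. Of 44 members 9 were called higher and 23 lower, where 11.7% of all 16702 genes were higher and 19.6% lower. The median log2 fold was -1.25 over the members and -0.11 over all genes.

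The higher genes in Schwann-like cells were led by Col20a1 at 7.06 ± 0.19 (adjusted p = 2.03e-11) and Col28a1 at 5.62 ± 0.40 (adjusted p = 8.02e-08). Col20a1 stood at a median of 50.5 CPM (15.4 to 116 CPM) there and at 0.168 to 0.411 CPM in fibroblast-like cells. Col9a3 was higher by 4.12, Col18a1 by 3.28, Col15a1 by 2.77, Col4a1 by 1.80, Col4a2 by 1.68 and Col27a1 by 1.19, and Col14a1 by 1.07, a call that held in 4 of 9 fits that left out 1 library. The lowest were Col6a6, Col6a3, Col6a5, Col8a2 and Col1a2, at -5.62, -5.57, -5.45, -5.43 and -4.25. Of the handling list 5 were higher, led by the collagen-binding integrins Itga2 at 3.93 and Itga1 at 2.62 and by P3h2, which hydroxylates type IV collagen, at 1.60, and 22 were lower, led by Itga11, Lox and Adamts3.

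Skeletal muscle-like cells had 7 members higher and 23 lower of 43, where 17% of all 17275 genes were higher and 16% lower, with a median of -1.06 over members and -0.04 over all genes. All 3 genes of type IX collagen were higher, Col9a3 by 4.25, Col9a1 by 1.70 and Col9a2 by 1.24. Col13a1 was higher by 2.96, Col18a1 by 1.61, Col23a1 by 1.43 and Col20a1 by 1.06. The lowest were Col8a2, Col10a1, Col6a6, Col12a1 and Col16a1, at -4.42, -4.29, -4.14, -3.75 and -3.68. The handling list had 30 of 42 genes lower, led by P4ha3, Adamts3 and Itga11, and Ddr1 was higher by 2.63.

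Astrocyte-like cells had 7 members higher and 28 lower of 42, where 15.4% of all 16947 genes were higher and 12.4% lower, with a median of -2.11 over members and -0.07 over all genes. Col22a1, a FACIT collagen of tissue junctions, was higher by 5.45 ± 0.75 (adjusted p = 5.33e-05) at a median of 8.31 CPM (1.69 to 31.9 CPM), and Col9a3 by 4.89. The minor type IV chains Col4a6, Col4a4 and Col4a5 were higher by 3.83, 2.38 and 1.04, while Col4a1 and Col4a2 were lower at -1.96 and -2.33. Col2a1 was higher by 3.26 and Col23a1 by 1.74. The summed chondrocyte markers, of which 8 of 9 were measured, stood at 313 to 609 CPM in these cells and at 80.2 to 316 CPM in fibroblast-like cells, and their part in the Col2a1 and Col9a3 values was not tested. The lowest were Col6a3, Col10a1, Col1a1, Col1a2 and Col6a6, at -5.49, -5.08, -4.87, -4.35 and -4.22, and no UMI of Col4a3 or Col13a1 was found. Of the handling list Ddr1 and Colgalt2 were higher, by 1.92 and 1.34, and 31 were lower, led by Lox, Pcolce2 and Adamts2.

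Mesothelial-like cells were the class most like fibroblast-like cells, with 7 members higher and 10 lower of 44, where 8.16% of all 16511 genes were higher and 6.37% lower, and a median of -0.31 over members and -0.07 over all genes. Of the 7 higher calls 5 were type IV genes: Col4a6 by 5.18 ± 0.36 (adjusted p = 1.65e-06), Col4a3 by 2.75, Col4a5 by 2.29, Col4a4 by 1.23 and Col4a1 by 1.07. Col4a6 stood at a median of 39.2 CPM (24.4 to 65.7 CPM) there and at 0.443 to 1.48 CPM in fibroblast-like cells. Col4a2 rose by less than 2-fold, at 0.92 (adjusted p = 4.27e-06), and was not called. Few counts lay behind Col4a3, with 8 UMI in all mesothelial-like cells, and behind Col22a1 and Col13a1, which were higher by 2.84 and 2.72 with 22 and 32 UMI. The lowest were Col10a1, Col25a1, Col6a6, Col9a2 and Col9a1, at -4.45, -3.57, -2.93, -2.41 and -2.36. Lower calls rested on few counts too. Col10a1 and Col9a1 held 0.000669% and 0.000893% of the collagen UMI of the class, less than Col4a3 at 0.00179%. The test used 7 libraries, which held part of the 523 cells of the class. Of these 17 calls 7 were lost in some fit that left out 1 library, and without Per1-/- day 10 the lower calls numbered 6. Of the handling list Itga1, Loxl2 and Plod2 led 5 higher genes, at 2.36, 2.11 and 2.04, and Colgalt2 and Itga2 were lower, at -4.28 and -1.25.

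**Figure D4:**
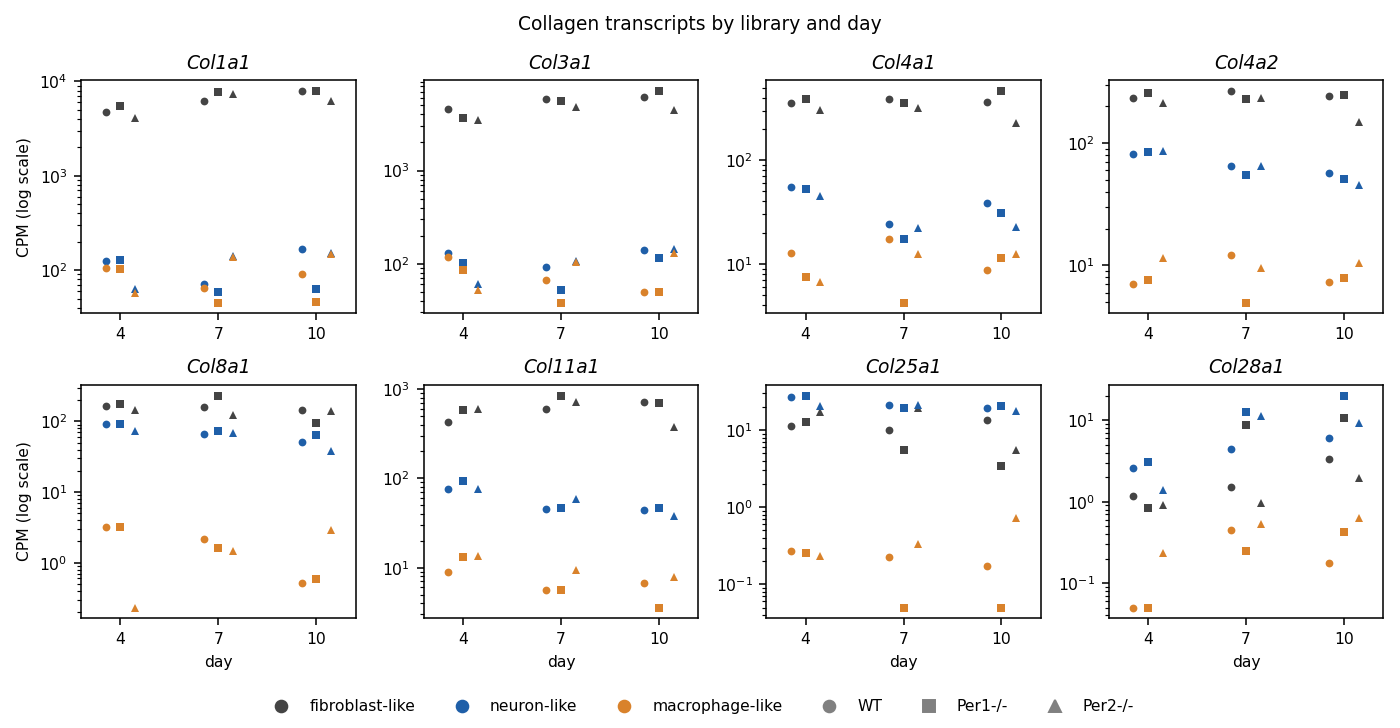
CPM of 8 members (log axis, values under 0.05 drawn at 0.05) by day in fibroblast-like, neuron-like and macrophage-like cells (colours), 1 point for each library with the genotype as its shape. Col1a1 in neuron-like cells lies with macrophage-like cells far below fibroblast-like cells on every day, Col8a1 and Col25a1 lie far above macrophage-like cells, and neuron-like Col4a1 is lower on day 7 than on day 4.

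Over the days, the neuron-like level of all members together was 4.50% ± 0.561 of the fibroblast-like level on day 4, 2.48% ± 0.606 on day 7 and 3.01% ± 0.675 on day 10 (SD over the 3 genotypes). In macrophage-like cells it was 2.23% ± 0.374, 1.38% ± 0.642 and 1.5% ± 1.03. The mean of both classes was highest on day 4, but the macrophage-like level in Per2-/- was lowest then, at 1.88% against 2.02% and 2.67% on the later days. Day 10 libraries were also counted with another feature table, so day and table cannot be told apart. In Per1-/- the sex makeup differed between day 4 and the later days as well, so it cannot be told apart from day in that genotype. Within neuron-like cells 34 members could be tested, and the comparisons of days share libraries.

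The makeup of the neuron-like class also moved with the day. A cluster led by Snhg11, Nts and Stmn3 held 90.4%, 93.5% and 97.5% of the neuron-like cells on day 10 in WT, Per1-/- and Per2-/-, but at most 0.245% of them on day 4 and 9.92% on day 7. The other cells of the class lay in a pair of clusters led by Miat and Igfbpl1, and in the Per1-/- library of day 7 99.3% lay in 1 of these. Between the later cluster and that pair, Col15a1 stood at 2.35 CPM against 0.366 and 0.295 CPM, Col28a1 at 11.1 CPM against 3.99 and 5.04 CPM, and Col27a1 at 4.66 CPM against 1.75 and 1.62 CPM. Col8a1 stood at 45.2 CPM against 80.9 and 83.0 CPM, and Col11a1 at 42.1 CPM against 71.9 and 76.3 CPM. Day 10 and this cluster cannot be told apart in the neuron-like changes to day 10 or in the change of the gap between the classes.

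From day 4 to day 7 in neuron-like cells, 1 member was higher and 6 were lower, where 10.7% of all 14235 genes were higher and 9.53% lower. Col4a1 fell from 55.6, 53.3 and 44.97 CPM to 24.0, 17.4 and 22.3 CPM, without overlap, with a log2 fold of -1.25 ± 0.13 (adjusted p = 9.42e-05). With doublets kept, however, a setting that also clustered the cells anew, the log2 fold of Col4a1 was 0.009 and that of Col4a2 0.009. The fall of either gene was thus not seen in that setting, and the cause was not tested. Col4a5 fell, at -2.04, Col7a1 at -1.24, Col5a2 at -0.83, Col11a1 at -0.70 and Col4a2 at -0.45. Col28a1 rose by 1.92 ± 0.33 (adjusted p = 0.00189), from 2.56, 3.11 and 1.39 CPM to 4.47, 12.7 and 11.3 CPM. Without Per2-/- day 4 there were 12 lower calls and without Per1-/- day 7 there were 3, counts with no share over all genes beside them. Among the handling genes 10 of 37 fell and 0 rose, led by Pcolce at -1.21, Mrc2 at -1.17 and Ddr1 at -0.89.

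From day 7 to day 10 in neuron-like cells, 5 members were higher and 1 lower, where 6.81% of all genes were higher and 5.86% lower. Col15a1 rose by 2.45 ± 0.54 (adjusted p = 0.013), Col27a1 by 1.57, Col18a1 by 1.35, Col5a2 by 1.04 and Col4a1 by 0.53, and Col8a1 fell, at -0.42. With doublets kept, Col18a1 and Col4a1 turned to -0.84 and -0.21. Each of these 6 calls was lost in some fit that left out 1 library, and the higher calls ranged from 1, without WT day 7, Per1-/- day 7 or Per1-/- day 10, to 8, without Per2-/- day 4. Without Per2-/- day 10 there were 2 and without WT day 10 3. The single lower call was lost without any 1 of WT day 7, Per1-/- day 7, Per2-/- day 7, WT day 10 and Per2-/- day 10. Col5a2 stood at 33.8, 108 and 43.1 CPM on day 10, so Per1-/- stood apart there. Itga1 and Sparc rose in the handling list, by 1.61 and 0.84, and Loxl1 and Ddr1 fell.

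From day 4 to day 10 in neuron-like cells, 5 members were higher and 7 lower, where 22.5% of all genes were higher and 21.9% lower, so neither share exceeded the background. Col15a1 rose by 2.96 ± 0.50 (adjusted p = 0.000577), from 0.480, 0.222 and 0.245 CPM to 3.02, 1.83 and 2.07 CPM. Col28a1 rose by 2.26, Col23a1 by 2.10, Col27a1 by 1.49 and Col14a1 by 1.41. Col7a1 fell, at -1.62, Col4a5 at -1.26, Col11a1 at -0.86, Col4a1 at -0.72 and Col8a1 at -0.70. Higher calls numbered 3 without WT day 4, WT day 10 or Per2-/- day 10 and 2 without Per2-/- day 4. Of the handling list 4 rose, led by Pcolce2 at 2.45, Itga1 at 1.90 and Fkbp14 at 0.54, and 10 fell, led by Mrc2 at -1.67, Loxl1 at -1.31 and Ddr1 at -1.30.

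Whether the distance between the classes widened was tested as a change of the neuron-like to fibroblast-like log2 fold from day 4 to day 10. Of 44 members, 9 passed an adjusted p of 0.05 with a change below 0 and 2 with a change above it, where 18.1% of all genes tested passed below 0 and 16.4% above. The median change was -0.35 over members and -0.04 over all genes. Col6a3 at -1.19 ± 0.30 (adjusted p = 0.0104), Col11a1 at -0.95 ± 0.20 (adjusted p = 0.00332) and Col4a1 at -0.69 ± 0.17 (adjusted p = 0.00776) widened in each of the 9 fits that left out 1 library. Col22a1, Col17a1, Col2a1, Col9a2, Col11a2 and Col4a2 were also below 0, and Col12a1 and Col24a1 above. Col1a1 at -0.31, Col1a2 at -0.31 and Col3a1 at -0.03 did not pass the test. Without Per2-/- day 10 there were 4 lower and 0 higher calls, and without any 1 day 4 library or WT day 7 there was 1 higher call. In the handling list 10 were below 0, led by Colgalt2, Mrc2 and Pcolce, and Itga1 above.

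In fibroblast-like cells the collagen share of UMI was 1.89%, 1.96% and 1.62% on day 4 in WT, Per1-/- and Per2-/-, 2.46%, 2.83% and 2.47% on day 7 and 2.81%, 3.08% and 2.12% on day 10. Day 4 did not overlap the later days. From day 4 to day 10, 14 members were called higher and 6 lower, where 10.5% of all 17215 genes were higher and 9.06% lower, and the median log2 fold was 0.55 over members and -0.003 over all genes. Col1a2, Col1a1 and Col3a1 rose by 0.64 ± 0.11 (adjusted p = 0.00868), 0.61 ± 0.13 (adjusted p = 0.0177) and 0.58 ± 0.15 (adjusted p = 0.0337).

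The largest changes were in members of low level. Col15a1 rose by 3.15 ± 0.49 (adjusted p = 0.00635), from 5.80, 3.86 and 3.30 CPM on day 4 to 34.7, 94.8 and 21.7 CPM on day 10. Col2a1 rose by 3.12 ± 0.46 (adjusted p = 0.00501), from 0.682, 0.883 and 1.005 CPM to 6.92, 2.74 and 19.0 CPM. In both genes the days did not overlap. Col26a1 rose by 2.10, Col14a1 by 1.23 and Col8a2 by 1.06. Col7a1 fell, at -2.01 ± 0.19 (adjusted p = 0.000926), from 6.76, 6.19 and 5.37 CPM to 2.04, 1.18 and 1.46 CPM, and Col12a1 at -1.30 ± 0.17 (adjusted p = 0.00314), from 317, 303 and 254 CPM to 162, 116 and 85.7 CPM. Col10a1, the collagen of growth plate cartilage, fell, at -3.08, Col24a1 at -1.61 and Col4a6 at -1.07.

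**Figure D5:**
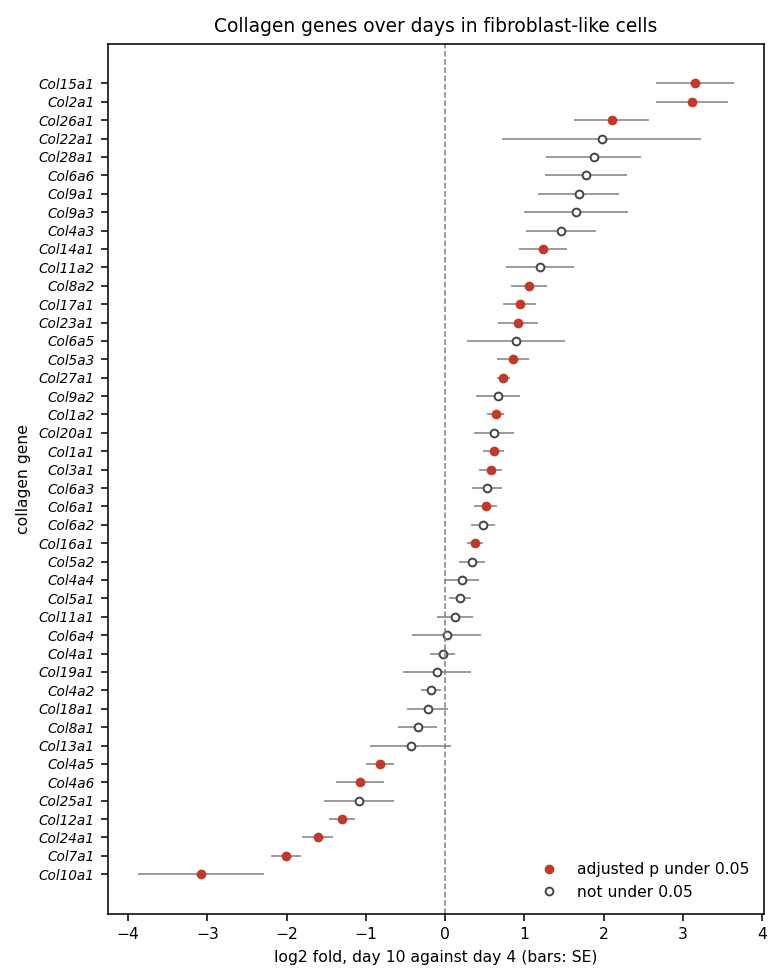
Log2 fold between day 10 and day 4 in fibroblast-like cells (x axis, bars are SE) for the 44 members (rows), filled where the adjusted p was under 0.05. Col15a1 at 3.15 and Col2a1 at 3.12 lie at the upper end, Col10a1 at -3.08 and Col7a1 at -2.01 at the lower end, and most points lie above 0.

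Of these 20 calls, 6 held in every fit that left out 1 library, namely Col7a1, Col24a1, Col12a1, Col27a1, Col2a1 and Col15a1. The higher calls fell to 6 without WT day 4 or Per1-/- day 10, to 8 without Per1-/- day 4 and to 9 without Per2-/- day 4, WT day 10 or Per2-/- day 10, and the lower calls to 3 without Per1-/- day 10.

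Cluster makeup of the fibroblast-like class changed with the day. A cluster led by Slc14a1 and Tnn held 30.3%, 29.2% and 32.1% of the class on day 4 and 2.19%, 0.123% and 0.238% on day 10. A cluster led by Igf2 and Clec3b went from 0% in each library to 28.3%, 66.0% and 17.4%, and the cluster with Comp and Epyc from at most 0.0245% to 35.2%, 3.52% and 60.1%. The cluster with Col2a1 and Cnmd was likewise found in the day 10 libraries almost alone. Members that rose or fell differed in level between these clusters. Col15a1 stood at 93.3 CPM in the Igf2 cluster and Col2a1 at 83.8 CPM in the Col2a1 cluster. Col12a1 stood at 149 CPM and Col7a1 at 4.78 CPM in the Slc14a1 cluster, against 22.2 and 1.32 CPM in the Comp cluster, and Col10a1 was highest in the Slc14a1 cluster at 12.2 CPM. In the whole class, summed chondrocyte markers stood at 80.2, 102 and 89.6 CPM on day 4 and at 169, 282 and 316 CPM on day 10, tenocyte markers at 60.8, 89.9 and 60.3 CPM and then 148, 154 and 128 CPM, and macrophage markers at 28.1, 41.4 and 19.5 CPM and then 36.4, 81.1 and 119 CPM. The part of any of these in the day difference was not tested, and more cells of a type and more RNA per cell cannot be told apart in these sums. Among the handling genes 11 rose, led by Colgalt2 at 1.86, Itga2 at 1.43 and Sparc at 0.70, and 4 fell, led by Tll1 at -1.36, Loxl4 at -1.31 and Loxl2 at -0.74.

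The members' median log2 fold was 0.43 from day 4 to day 7 and 0.07 from day 7 to day 10, and few single genes passed the test over either interval. From day 4 to day 7, 3 members were higher and 1 lower, where 1.49% of all genes were higher and 1.86% lower. Col14a1 rose by 1.75, Col1a2 by 0.57 and Col27a1 by 0.45, and Col7a1 fell, at -1.11. None of these 4 calls held in every fit: without any 1 of WT day 4, Per2-/- day 4 and the 3 day 7 libraries no member was called higher, without Per1-/- day 4 or Per1-/- day 10 1 was, and without any 1 day 4 or day 7 library none was called lower. P3h2 and Fkbp14 rose in the handling list, by 0.68 and 0.48. From day 7 to day 10, 0 members were higher and Col12a1 alone was lower, at -0.97 ± 0.17 (adjusted p = 0.0442), where 1.03% of all genes were higher and 0.215% lower. The unadjusted p of edgeR was under 0.05 for 8 of 44 members and for 1877 of 17215 genes. The Col12a1 call was lost in 6 of 9 fits, without WT day 4, Per2-/- day 4, Per1-/- day 7, Per2-/- day 7, Per1-/- day 10 or Per2-/- day 10. DESeq2 called 11 members higher and 2 lower from day 4 to day 7 and 1 higher and 2 lower from day 7 to day 10. The shares over all genes given above are those of edgeR, so these counts have no background beside them.

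Fibroblast-like clusters differed among themselves by amounts that varied from member to member. Over the 13 clusters, Col1a1 ranged from 2541 to 9182 CPM and Col4a1 from 253 to 420 CPM, a 1.66-fold range that was the narrowest of the members listed by cluster. Col2a1 ranged 351-fold, Col9a1 374-fold and Col9a3 98.2-fold, all at low levels, but the abundant Col14a1 ranged 37.9-fold and Col11a1 16.6-fold and the less abundant Col23a1 4.06-fold. Col12a1 ranged from 22.2 to 410 CPM and Col25a1 from 1.88 CPM to 39.97 CPM in the cluster led by Wnt4, Syt13 and Pou3f1.

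Genotypes were compared in fibroblast-like cells over the 3 days. For Per1-/- against WT, edgeR called 0 of 44 members, as it called 0% of all 17215 genes higher and 0% lower. Its unadjusted p was under 0.05 for 11 of the 44 members and for 1597 of the 17215 genes. DESeq2 called 0 members higher and 1 lower, counts that have no share over all genes beside them. The lowest adjusted p was 0.38, for Col4a5 at -0.82 ± 0.17 and Col27a1 at 0.35 ± 0.08. Cluster makeup differed too, a cluster led by C1qtnf3 and Tnmd holding 44.2% of the class in Per1-/- day 7 and 2.97% in WT day 7. That cluster had Col4a5 at 12.65 CPM and Col27a1 at 70.25 CPM, where the medians over fibroblast-like clusters were 44.87 and 45.16 CPM. The part of cluster makeup in the genotype values was not tested. Without Per1-/- day 4, edgeR called 4 members higher and 2 lower, with no share over all genes to set beside these counts. The libraries then left in the knockout are those on days 7 and 10 with little Xist, and a part of sex makeup was not tested. For Per2-/- against WT, edgeR again called 0 of 44 members and 0% of all genes in either direction. Its unadjusted p was under 0.05 for 10 of the 44 members and for 1406 of the 17215 genes. DESeq2 called 1 member higher and 0 lower, again without a share over all genes. The lowest adjusted p was 0.514, for Col9a1 at 1.70 ± 0.50. The handling list had no call in either contrast in edgeR.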

How the data were processed

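Groups came from the labels: 3 genotypes by 3 days, 1 library each. The authors deposited UMI counts per gene and cell, made with Cell Ranger 4.0.0 (days 4 and 7) and 6.0.0 (day 10) per the file headers on mm10, while the submitters' processing notes name version 7.1. These deposited counts were used as they stand, over the genes shared by both feature tables. Following the study's limits, a cell needed 3000 UMI or more, of which no more than 20% mitochondrial, and 7164 high-scoring simulated-doublet neighbours were removed, at 0.8% of cells per 1000 barcodes. Clustering used 2000 variable genes without collagen, collagen-handling and mitochondrial genes, 30 principal components, 15 neighbours and Leiden resolution 1 (leidenalg 0.10.2). Classes with at least 20 cells in a library were summed, which left out 3 sums. Sums were tested with edgeR 4.0.16 (TMM, filterByExpr, quasi-likelihood F-test, library as a term in class comparisons, day plus genotype elsewhere) in R 4.3.3, and p-values were adjusted by Benjamini-Hochberg over every gene in the fit. Class calls also needed a 2-fold difference. The tests were checked on simulated counts. SE is the log2 fold divided by the root of F. Since groups have 1 library, p-values rest on the spread between libraries left after these terms.

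Members and lists were chosen with earlier results of these data known. Named members were the 15 most abundant in fibroblast-like cells, the 5 with the largest called fold in each direction of a comparison, every member higher in a class than in fibroblast-like cells, and chain partners, and in the handling list the 3 largest in each direction. Further genes named in the text were chosen after their values were seen. Alternatives were DESeq2 1.42.0, RLE factors, no filter, doublets kept, at least 5000 UMI, collagen genes in clustering, Leiden resolution 2, no library term, narrower classes, 1 factor alone and leaving out each library. Sequences are from RefSeq. Depth was 126625215 to 353198559 UMI per library, and floors (3 counts) cover counting error only.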

Additional observations from a re-analysis of the deposited data

Results flagged for a closer look

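The change of the neuron-like to fibroblast-like log2 fold from day 4 to day 10, a test of a difference between days, passed an adjusted p of 0.05 in edgeR's quasi-likelihood test for 11 members. Of the 44 members 20.45% passed below 0 and 4.545% above, where 18.1% and 16.4% of all 17730 genes tested did. The change was below 0 for Col22a1 (-3.88), Col17a1 (-2.97), Col2a1 (-2.64), Col9a2 (-1.88), Col11a2 (-1.54), Col6a3 (-1.20), Col11a1 (-0.95), Col4a1 (-0.69) and Col4a2 (-0.48). It was above 0 for Col12a1 (1.19) and Col24a1 (2.77). Col6a3, Col11a1 and Col4a1 passed in each of the 9 fits that left out 1 library. Without Per2-/- day 10, Col22a1 stood at -0.63, Col9a2 at -1.13, Col11a2 at -0.85 and Col12a1 at 0.73, none of them past the threshold, and Col24a1 turned to -0.63. Col22a1, Col17a1, Col2a1 and Col24a1 had under 2.1 CPM in neuron-like cells of every library.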

How the results depend on the processing

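The labels give 1 library for each genotype and day and no replicate numbers, so no replicate pairing was available, while class comparisons set classes of the same library against each other through the library term, and fits of days or genotypes held the other factor as a term. Over the 9 fits that left out 1 library each, the members called lower in neuron-like than in fibroblast-like cells numbered 33 to 34 and those called higher 0 to 4. Against macrophage-like cells the counts were 11 to 13 higher and 2 to 2 lower, and in macrophage-like against fibroblast-like cells 0 to 0 higher and 40 to 40 lower. Higher and lower counts were 6 to 8 and 21 to 23 in skeletal muscle-like, 8 to 9 and 22 to 24 in Schwann-like, 6 to 8 and 27 to 29 in astrocyte-like and 5 to 8 and 6 to 12 in mesothelial-like cells. For the change of the gap they were 0 to 3 and 4 to 10. In fibroblast-like cells they were 0 to 3 and 0 to 1 from day 4 to day 7, 0 to 2 and 0 to 1 from day 7 to day 10, and 6 to 12 and 3 to 5 from day 4 to day 10, and for Per1-/- 0 to 4 and 0 to 2 and for Per2-/- 0 to 0 in both directions. In neuron-like cells they were 1 to 1 and 3 to 12, 1 to 8 and 0 to 1, and 2 to 7 and 6 to 8 over the same intervals.

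The 34 lower calls in neuron-like cells stayed within 1.5 times under every other setting, as did all calls against fibroblast-like cells in macrophage-like, skeletal muscle-like, Schwann-like and astrocyte-like cells. Higher calls in neuron-like cells numbered 1 without a library term, 1 without the fibroblast-like cluster with Comp, Epyc and Hapln1 and 5 with library totals in place of TMM, a setting chosen after seeing the data. Against macrophage-like cells, 8 were higher without a library term, and 0 were lower with doublets kept and 9 at Leiden resolution 2. Without the day 10 libraries, also chosen after seeing the data, 6 were lower in mesothelial-like cells. The gap change had 1 higher call with DESeq2, with collagen genes in clustering and without that cluster.

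In fibroblast-like cells from day 4 to day 7, higher and lower calls were 11 and 2 with DESeq2, 0 and 0 at Leiden resolution 2 and 1 and 0 with days as the only factor. From day 7 to day 10, 1 was higher and 2 lower with DESeq2 and 1 higher without a filter on low counts, and 0 were lower with doublets kept, at resolution 2, with days alone, without that cluster and with library totals. From day 4 to day 10, days alone gave 9 and 3. DESeq2 called 1 lower in Per1-/- and 1 higher in Per2-/-. Counts under other settings are of members alone, with no share over all genes beside them.

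In neuron-like cells from day 4 to day 7, higher calls were 4 with doublets kept and 2 with collagen genes in clustering, and lower calls 13 without a filter, 3 with doublets kept and 10 at resolution 2. From day 7 to day 10, higher calls were 3 with DESeq2, 12 without a filter, 2 with doublets kept, 2 with collagen genes in clustering and 1 at resolution 2, and lower calls 4 with doublets kept and 0 with days alone. From day 4 to day 10, resolution 2 gave 2 higher. Direction turned with doublets kept for Col18a1 against macrophage-like cells (0.23), for Col4a1 and Col4a2 from day 4 to day 7 (0.009 each) and for Col18a1 (-0.84) and Col4a1 (-0.21) from day 7 to day 10, and without Per2-/- day 10 for the gap change of Col24a1 (-0.63, in a range of -0.63 to 3.40 over fits without 1 library). The cause was not tested. Over all members called in a comparison and all settings, 4922 results kept their direction and side of the threshold, 361 lost the threshold and 6 turned. Counts of a few UMI limit the members under 1 CPM in either class of a comparison, for lower calls as for higher ones.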
